A study of Mus musculus with 16 samples.

Results

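Intermediate filaments are the rope-like polymers of the cytoskeleton, and 7 of their genes were followed here through the dorsal root ganglion (DRG) of the mouse: the neurofilament genes Nefl, Nefm and Nefh, the neuronal genes Ina and Prph, and Vim and Nes, which are best known from glia, connective tissue and progenitor cells. They were chosen by name and were found by matching their Ensembl identifiers to an mm10 annotation, which gave 7 genes out of 52636 in the count data. All 7 passed the filter on low counts and were among the 21371 genes tested. The libraries came from L3-6 DRGs of 16 male C57BL/6J mice, 3 to 4 months old, with 4 mice in each of 4 groups and 1 mouse per library. Sham-Saline mice had sham surgery and saline injections, SNI-Saline mice had spared nerve injury and saline, Sham-DMI mice had sham surgery and desipramine, and SNI-DMI mice had the injury and desipramine. Desipramine (DMI) is a tricyclic antidepressant that blocks noradrenaline reuptake. It was given intraperitoneally at 15 mg/kg per injection, with more than 1 injection each day, for 3 weeks. In the spared nerve injury used here, the common peroneal and sural branches of the left sciatic nerve were injured and the tibial branch was left intact, so uninjured neurons remained in the same ganglia. Whether DRGs of both sides were combined is not given in the sources used here, and the start of treatment is placed 4 weeks after surgery in one place and 4 months in another.

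In mature sensory neurons the light, middle and heavy neurofilament proteins assemble together, and the long tails of the middle and heavy subunits space the filaments and help to set the calibre of myelinated axons. Nefl encodes the light subunit, without which the others do not form filaments, while Ina encodes alpha-internexin, a partner of the triplet that is most abundant in developing and central neurons. Prph encodes peripherin, the filament of small sensory and other peripheral neurons, which is known to be induced by nerve injury. Vim encodes vimentin, the filament of fibroblasts, endothelial cells, immune cells and many glia, and of regrowing neurons. Nes encodes nestin, which is known from neural progenitors, Schwann cells and vessel walls.

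On GRCm38, Nefl (ENSMUSG00000022055) lies at chr14:68083863-68089095 on the plus strand beside Nefm (ENSMUSG00000022054) at chr14:68082590-68124846 on the minus strand, and Nefh (ENSMUSG00000020396) lies at chr11:4938754-4948064 on the minus strand. Ina (ENSMUSG00000034336) at chr19:47014698-47025327, Prph (ENSMUSG00000023484) at chr15:99055174-99058978, Vim (ENSMUSG00000026728) at chr2:13573927-13582826 and Nes (ENSMUSG00000004891) at chr3:87971078-87980451 are all on the plus strand. One annotated Nefm transcript runs on into Nefl, so that its exon at chr14:68082590-68084970 shares 1108 of the 1147 bases of the first exon of Nefl on the opposite strand, which is 32.8% of the exon bases of Nefl. Ina shares 456 exon bases, or 14.1%, with Nt5c2 on the opposite strand. Whether counting used the strand is not given in the sources used here. Of 148 genes that lie wholly inside exons of a well-expressed gene on the opposite strand, 144 had no count in any library, as counting without strand would give. The same bases are 19.2% of the exon bases of Nefm. The levels of Nefl, Nefm and Ina per length may therefore be understated, while a difference of one gene between groups rests on the same bases in every library.

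RefSeq promoter windows on GRCm38.p6 were at hand for 4 of the 7 genes, Ina, Prph, Vim and Nes. The stretch from -40 to -11 before the start of each transcript is shown because a TATA box, which helps to place the start of transcription, would lie there, and because a neuronal and a glial member turned out to carry the same letters. Capitals mark TATAA, all 4 stretches are read 5′ to 3′ on the plus strand, and the stretch of Vim lies within an exon of another annotated Vim transcript. Starts are those of the RefSeq windows. For Ina, Vim and Nes they are not the gene starts given above, and the stretch of Nes runs past its gene start at chr3:87971078.
Prph at chr15:99055134-99055163: ccgcagggcTATAAagccgccccgcatcgg
Vim at chr2:13574271-13574300: aacagtgtTATAAaagcagcgcccttggcg
Ina at chr19:47014641-47014670: caaccccgcgccttaaaagccccgcacacc
Nes at chr3:87971053-87971082: aataccctcgcttcagctcgctgctggaat
TATAA read forward was in the stretches of Prph and Vim and in 3.79% of such stretches over 32851 RefSeq windows. In windows of 300 bases read on both strands, the letters TGANTCA and TGACGTCA, which AP-1 and ATF or CREB proteins are known to bind, were in 7.81% and 1.79% of windows and in none of these 4. The letters GGGCGG of the GC box were in 35.7% of windows on either strand, and in those of Ina, Prph and Nes.

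Between 41194238 and 73920332 read pairs per library were counted on genes. Since the sample records give spinal cord as tissue but DRG as cell type, marker genes were checked: the summed CPM (read counts scaled to library size with TMM) of 6 DRG identity genes was 2886 to 4088 against 13.0 to 37.9 for the 5 of 8 spinal cord markers that could be tested, while the spinal markers Olig2, Chat and Slc6a5 were too low to test. Atf3, a transcription factor switched on in axotomized neurons, separated the surgery groups, with a log2 fold change (log2FC) of 2.32 ± 0.22 (SE) between the saline groups and 1.70 ± 0.22 between the DMI groups. Sham-DMI replicates 2 and 4 stood between the sham and injured libraries for some of these genes, with Sprr1a at 12.2 and 9.19 CPM against 0.62 to 2.06 in Sham-Saline and 30.1 or more in every SNI library. Several results that rest on these 2 libraries are given below with and without them, and the others with them only. The library numbers in the sample titles run from 17 to 24 for DMI and from 33 to 40 for saline, so that a shift tied to library number and the effect of DMI cannot be told apart. Each group also has its own run, 17 to 20 for Sham-DMI, 21 to 24 for SNI-DMI, 33 to 36 for SNI-Saline and 37 to 40 for Sham-Saline. The same limit therefore holds for the effect of injury. In bulk RNA, fewer cells of a type and less RNA per cell cannot be told apart either.

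The neurofilament genes were among the most abundant transcripts of the DRG. Nefm ranked 2 to 4 by CPM among the tested genes in the 16 libraries, Nefh ranked 4 to 21, Nefl 12 to 25 and Prph 16 to 37. Vim came at ranks 126 to 332, and Nes at 2067 to 5564 and Ina at 4086 to 5103 were far below. Nefl, Nefm and Nefh together took 0.703% of all gene reads in the median Sham-Saline mouse and 0.772%, 0.748% and 0.768% in the median SNI-Saline, Sham-DMI and SNI-DMI mouse.

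Per kilobase of exon, over the 16 libraries, Prph had the highest level at 840 ± 82.0 CPM per kb (SD, n = 16). Nefh at 593 ± 59.8, Nefl at 590 ± 50.3 and Nefm at 537 ± 45.1 CPM per kb followed and lay within each other's spread. Vim stood at 114.5 ± 18.99 CPM per kb, below every library of the triplet. Ina at 16.9 ± 1.34 and Nes at 11.8 ± 3.37 CPM per kb were lowest and their ranges overlapped. With the length of the RefSeq-matched transcript less the bases shared with another gene, Nefm came first at 931 ± 78.2 CPM per kb, with Prph at 902 ± 87.9 and Nefl at 878 ± 74.8, so the order of the 4 abundant genes depends on the length used and is not settled here. The steps down to Vim, and from Vim to Ina and Nes, held under each length.

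**Figure D1:**
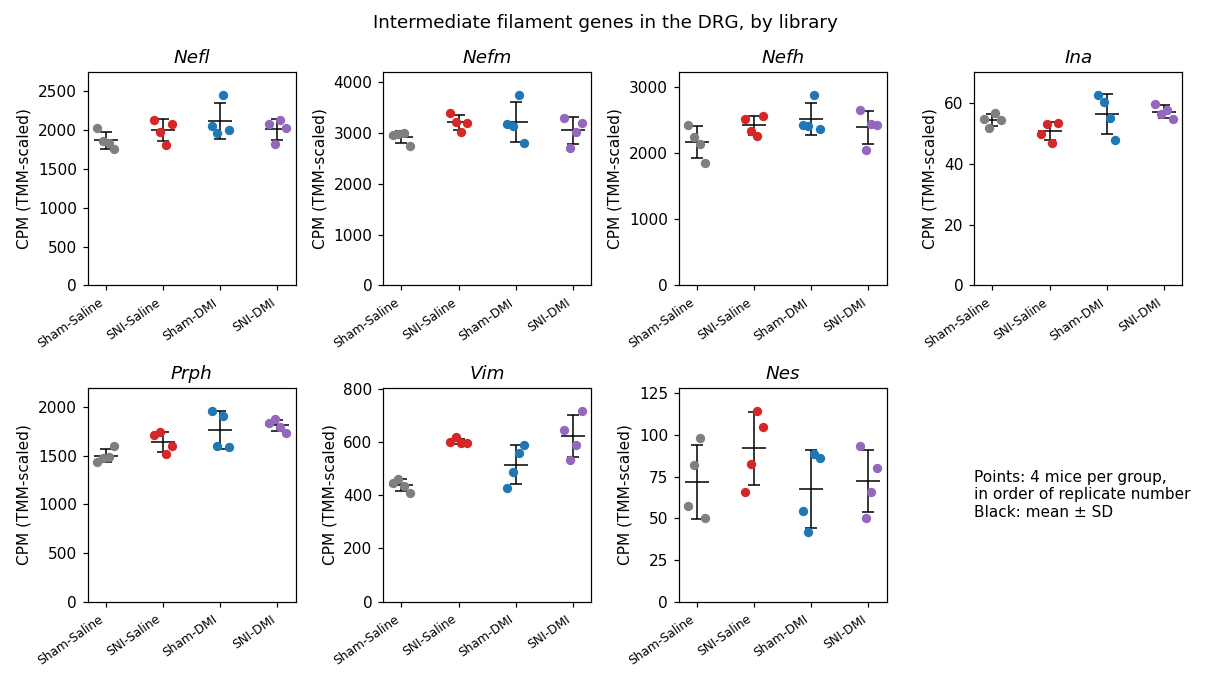
Level of each gene in every library, as TMM-scaled CPM (vertical axes start at 0), in Sham-Saline (grey), SNI-Saline (red), Sham-DMI (blue) and SNI-DMI (purple). Points are mice in order of replicate number and black bars are the mean ± SD of 4 mice. The 4 SNI-Saline points of Vim lie between 594 and 617 CPM, above the 4 Sham-Saline points at 408 to 461, while the Nes points of all groups cover much the same range.

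Vim was the member that changed with nerve injury. The Sham-Saline mice had 447, 461, 435 and 408 CPM, and the SNI-Saline mice had 599.5, 617, 594 and 596 CPM. Every injured library was above every sham library, and the SNI-Saline mice were close together, with 602 ± 10.6 CPM (SD, n = 4) against 438 ± 22.3. In SNI-Saline versus Sham-Saline the log2FC of Vim was 0.46 ± 0.090 (SE, 95% interval 0.26 to 0.66), with an adjusted p of 0.0129 by edgeR's quasi-likelihood test. It passed the threshold on adjusted p of 0.1, as 1 of the 7 members did, where 12.0% of all tested genes passed and 5.85% passed as higher, and it also met the study's cut-off for DEGs (nominal p under 0.05 and absolute log2FC of at least 0.32), which 7.15% of genes met. Its absolute log2FC was larger than that of 89.9% of the tested genes.

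Nefm had 2965, 2992, 3007 and 2741 CPM in Sham-Saline and 3392, 3214, 3031 and 3206 CPM in SNI-Saline. The lowest injured library thus lay just above the highest sham library, a separation that 15.4% of tested genes showed in either direction, and the log2FC of 0.13 ± 0.077 did not pass the test (adjusted p = 0.313). For Nefh, whose tails carry most of the phosphorylation of the triplet, the groups overlapped at 2161 ± 237 and 2413 ± 146 CPM, with a log2FC of 0.16 ± 0.087 and an adjusted p of 0.287. Nefl stood at 1865 ± 111 CPM in the sham mice and 1993 ± 145 CPM in the injured mice (log2FC 0.096 ± 0.075, adjusted p = 0.482). None of the triplet passed, and the 95% intervals of the 3 log2FC values reached from -0.07 at the lowest to 0.35 at the highest.

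Prph, although known as an injury-induced filament, had 1436, 1482, 1488 and 1601 CPM in Sham-Saline and 1708, 1741, 1521 and 1602 CPM in SNI-Saline. The groups overlapped, and the log2FC of 0.13 ± 0.069 (95% interval -0.02 to 0.28) did not pass (adjusted p = 0.267). Ina was the only member with a negative estimate, at 54.5 ± 2.0 CPM in sham mice and 50.9 ± 3.09 CPM in injured mice (log2FC -0.099 ± 0.070, adjusted p = 0.427). Nes had the second largest estimate, a log2FC of 0.36 ± 0.25 (adjusted p = 0.420), but its Sham-Saline mice ran from 50.1 to 98.0 CPM and its SNI-Saline mice from 65.8 to 114, so the 95% interval of -0.19 to 0.90 included 0. With 4 mice per group, a change of Nes of this size could not be resolved, since its coefficient of variation within groups was 23.9% to 34.4%, against 1.8% to 14.2% for the 6 other members.

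Among the DMI groups Vim was again the member with the largest difference between injured and sham mice, but no member passed the test. The Sham-DMI mice had 425, 485, 556 and 588 CPM of Vim and the SNI-DMI mice 645, 531, 589 and 716 CPM. The groups overlapped, while 5.04% of tested genes had groups that did not, and the log2FC was 0.27 ± 0.090 (95% interval 0.076 to 0.47) with a nominal p of 0.0073 and an adjusted p of 0.243. By edgeR 0 of the 7 members passed, where 0.402% of all tested genes did. A nominal p under 0.05 was found for 1 member and for 12.1% of all genes. DESeq2 also called 0 of 7, and on all 16 libraries it called 2.24% of genes. The other 6 log2FC values ran from -0.078 (Nefh) to 0.10 (Nes), with adjusted p of 0.729 to 0.945. Without Sham-DMI replicates 2 and 4 the log2FC of Vim was 0.34 (adjusted p = 0.352), and the near-zero estimates of Ina and Prph turned negative, to -0.045 and -0.094. Whether the response of Vim to injury differed between saline and DMI was tested as the difference of the 2 effects, which was -0.19 ± 0.13 (95% interval -0.46 to 0.089, adjusted p = 0.719), so a difference was not shown.

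**Figure D2:**
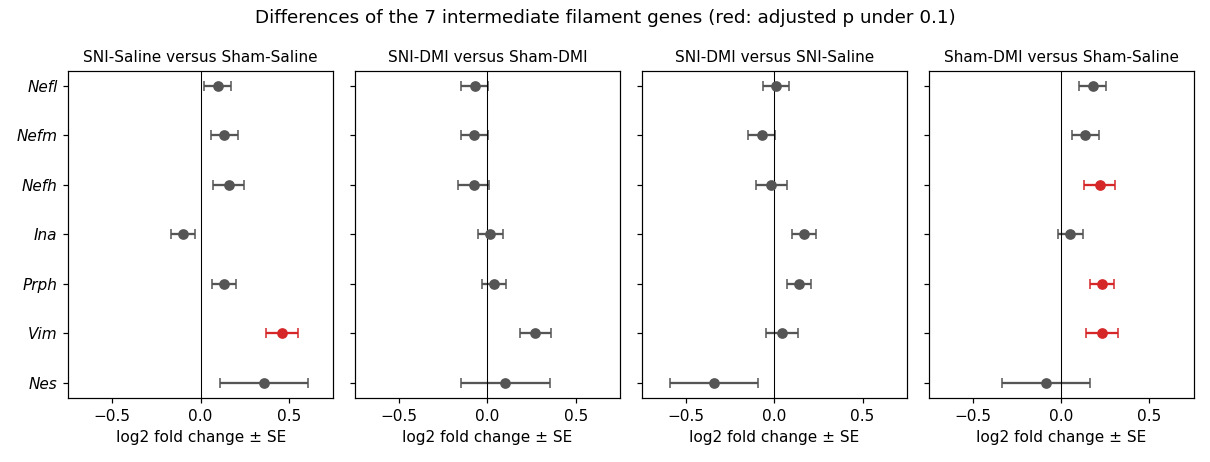
Log2 fold change of each gene (horizontal axis) in the 4 comparisons, as edgeR estimates with bars of 1 SE, from 4 mice per group. Red marks an adjusted p under 0.1, which Vim reached after injury under saline (0.46) and Prph, Nefh and Vim reached in Sham-DMI versus Sham-Saline (0.22 to 0.23), while no gene reached it in the 2 middle comparisons.

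In sham-operated mice, DMI went with higher Prph, Nefh and Vim. The 3 genes passed at adjusted p under 0.1, where 23.4% of all tested genes passed and 11.6% passed as higher, so DMI and saline sham libraries differed widely. None of the 3 reached the study's cut-off, which 11.5% of genes met, and for all 7 members the 2 groups overlapped, while 17.1% of genes had groups that did not.

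Prph had the smallest p of the 7, with Sham-DMI mice at 1960, 1601, 1907 and 1587 CPM beside the Sham-Saline values given above. Replicates 1 and 3 were above every Sham-Saline mouse, replicate 2 was level with the highest Sham-Saline mouse, and replicate 4 was within the Sham-Saline range. The log2FC was 0.23 ± 0.069 (95% interval 0.083 to 0.38, adjusted p = 0.0277). It stayed past the threshold under every alternative fit tried, with log2FC from 0.14 to 0.37.

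The call for Nefh rested on less. The Sham-Saline mice had 2418, 2236, 2140 and 1851 CPM of Nefh, and the Sham-DMI mice had 2417, 2404, 2876 and 2366 CPM. Replicate 3 of Sham-DMI was high and replicate 4 of Sham-Saline was low, and the other 6 mice overlapped. The log2FC of 0.22 ± 0.087 had an adjusted p of 0.0945, which rose to 0.226 without Sham-DMI replicate 3 and to 0.279 without Sham-Saline replicate 4. The call was also lost without Sham-Saline replicate 2 (0.121) or 3 (0.147) and, since all groups share 1 estimate of the spread, without SNI-Saline replicate 3 (0.101) or 4 (0.111). Nefl was likewise highest in Sham-DMI replicate 3 and lowest in Sham-Saline replicate 4, with 2052, 1954, 2449 and 1992 CPM in Sham-DMI against 2016, 1861, 1833 and 1751 in Sham-Saline, and missed the threshold with a log2FC of 0.18 ± 0.075 (adjusted p = 0.112). Nefl passed with DESeq2 on all 16 libraries (log2FC 0.19, adjusted p = 0.0680), and with edgeR when Sham-Saline replicate 1 (adjusted p = 0.0663), Sham-DMI replicate 2 (0.0471) or 4 (0.0739), replicate 1 (0.0922) or 2 (0.0989) of the SNI-Saline mice, or replicate 1 (0.0978), 3 (0.0952) or 4 (0.0950) of the SNI-DMI mice was left out. Nefm, at 3172, 3145, 3756 and 2811 CPM in Sham-DMI, gave a log2FC of 0.14 ± 0.077 (adjusted p = 0.238), which became 0.22 (0.0655) without Sham-DMI replicate 4.

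For Vim the log2FC between the sham groups was 0.23 ± 0.090 (adjusted p = 0.0885), from the values given above, with Sham-DMI replicate 1 inside the Sham-Saline range and the other 3 above it. Without Sham-DMI replicates 2 and 4, Vim fell short with a log2FC of 0.17 (adjusted p = 0.292), while Prph at 0.37 (adjusted p = 0.0020), Nefh at 0.29 (0.0642), Nefl at 0.27 (0.0372) and Nefm at 0.24 (0.0477) all passed. Replicate 4 alone was enough to move Vim, to 0.18 with an adjusted p of 0.202. The call was lost too without Sham-DMI replicate 3 (0.169), replicate 3 (0.134) or 4 (0.206) of Sham-Saline, or the same numbers of SNI-Saline (0.104 and 0.110). Ina (log2FC 0.053 ± 0.070) and Nes (-0.086 ± 0.25) did not pass, with adjusted p of 0.657 and 0.856. The numbers of members that passed thus depend on single libraries, between 1 and 4 when each library was left out in turn.

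Lists of other genes were counted beside these sham results, and their part in them was not tested. In Sham-DMI versus Sham-Saline, 4 of 10 pan-neuronal genes passed as higher and 0 as lower, among them the tubulin gene Tubb3 at a log2FC of 0.25 ± 0.07, and the summed list lay at 7707 to 9047 CPM against 7294 to 7689. Estimates were above 0 for 6 of the 10 and below 0 for 4, with a median log2FC of 0.019, so the list did not rise as a whole. With Sham-DMI replicates 2 and 4 left out, 4 passed as higher and 1 as lower. Of 10 injured-neuron genes 6 passed as higher, and 3 without Sham-DMI replicates 2 and 4. Their sum was 467 to 516 CPM against 399 to 433, with replicates 3 and 1 at the ends of that range. Of 6 satellite glia genes 2 passed as higher, Fabp7 and Apoe, while 2 of 7 macrophage and 2 of 7 endothelial genes passed as lower and 0 of 7 fibroblast genes passed. All 7 macrophage, 7 endothelial and 7 fibroblast genes had estimates below 0, with median log2FC of -0.28, -0.27 and -0.28. So had all 6 pericyte genes (1 passed) and all 6 non-myelinating and repair Schwann cell genes (3 passed). Of 5 proliferation genes 4 were below 0 and 1 passed as lower. These shares stand beside the 23.4% of all genes that passed in this comparison, and without replicates 2 and 4 the macrophage count was 1 and the endothelial count 4, with 24.3% of all genes passing. The repair Schwann cell count was then 2, and the pericyte and proliferation counts stayed at 1. When libraries were scaled by the pan-neuronal list, the log2FC of Prph was 0.17 (adjusted p = 0.0443), of Nefh 0.16 (0.192), of Vim 0.18 (0.262) and of Ina -0.0072, so relative to neuronal transcripts Prph alone passed.

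In nerve-injured mice DMI moved no member past the threshold. Ina came closest: the SNI-Saline mice had 49.9, 53.1, 46.9 and 53.5 CPM and the SNI-DMI mice 59.8, 56.3, 57.9 and 54.7 CPM. Every DMI mouse was above every saline mouse, as 13.3% of tested genes were separated in either direction, and the log2FC was 0.17 ± 0.070 (95% interval 0.017 to 0.32) with a nominal p of 0.0262 and an adjusted p of 0.204. When the 8 libraries of this comparison were fitted alone, the adjusted p was 0.0920. This is the same group of SNI-Saline mice that had the low estimate of Ina against Sham-Saline, so the 2 comparisons share libraries.

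Prph averaged 1643 ± 101 CPM under saline and 1811 ± 59.6 CPM under DMI, with mice of 1836, 1875, 1800 and 1734 CPM in the latter group. Only the lowest of these was within the SNI-Saline range, and the log2FC of 0.14 ± 0.069 did not pass (adjusted p = 0.281). The triplet gave estimates close to 0, with log2FC of 0.011 ± 0.075 for Nefl, -0.070 ± 0.077 for Nefm and -0.017 ± 0.087 for Nefh, and 95% intervals from -0.24 to 0.17 in all. Vim stayed level at 602 ± 10.6 and 620 ± 78.7 CPM (log2FC 0.043 ± 0.090, adjusted p = 0.836). Nes had a log2FC of -0.34 ± 0.25 (adjusted p = 0.481), from 91.9 ± 21.9 to 72.5 ± 18.6 CPM. By edgeR 0 of the 7 members passed, where 2.93% of all tested genes did. A nominal p under 0.05 was found for 1 member and for 18.5% of all genes. DESeq2 also called 0 members, and on all 16 libraries it called 7.64% of genes.

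The difference between the DMI effects in injured and in sham mice was negative for 6 members and positive for Ina. It was largest among the triplet for Nefh at -0.24 ± 0.12 and Nefm at -0.21 ± 0.11, each with an adjusted p of 0.639. No member passed, and 0 had a nominal p under 0.05. By edgeR 0% of all tested genes passed, 1692 of them had a nominal p under 0.05, and DESeq2 on all 16 libraries called 0.0749% of genes and no member. An unequal response of the filament genes to DMI in injured and sham mice was therefore not shown with 4 mice per group.

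The 3 neurofilament genes moved as a unit from mouse to mouse. Over the 16 libraries Pearson's r of log2 CPM was 0.91 for Nefl with Nefh, 0.85 for Nefm with Nefh and 0.82 for Nefl with Nefm, and with group means removed 0.89, 0.82 and 0.82. These correlations are a description over libraries that share their scaling. Per exon length, the ratio of Nefh to Nefl had group medians of 0.992 to 1.02 and that of Nefm to Nefl 0.898 to 0.942. Groups overlapped in every comparison of these 2 ratios, and the fold of one group's median over another's was 0.954 to 1.02. The proportions of the 3 transcripts thus stayed close together across surgery and drug, without a test of their equality.

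Ina and Prph were more loosely tied to the triplet, with r of 0.11 to 0.18 for Ina and 0.35 to 0.51 for Prph over the same libraries. The ratio of Ina to Nefl had a median of 0.0306 in Sham-Saline mice (0.0284 to 0.0325) and 0.0271 in SNI-Saline mice (0.0245 to 0.0281). The Sham-DMI median was 0.0285 (0.0235 to 0.0322) and the SNI-DMI median 0.0293 (0.0282 to 0.0324). It was lower in every SNI-Saline mouse than in any Sham-Saline or SNI-DMI mouse, by a fold of 0.883 and with SNI-DMI higher by 1.08, although the gaps between the nearest mice were narrow. These ratios were given no test. Prph over Nefl and Nes over Vim overlapped in all 4 comparisons.

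**Figure D3:**
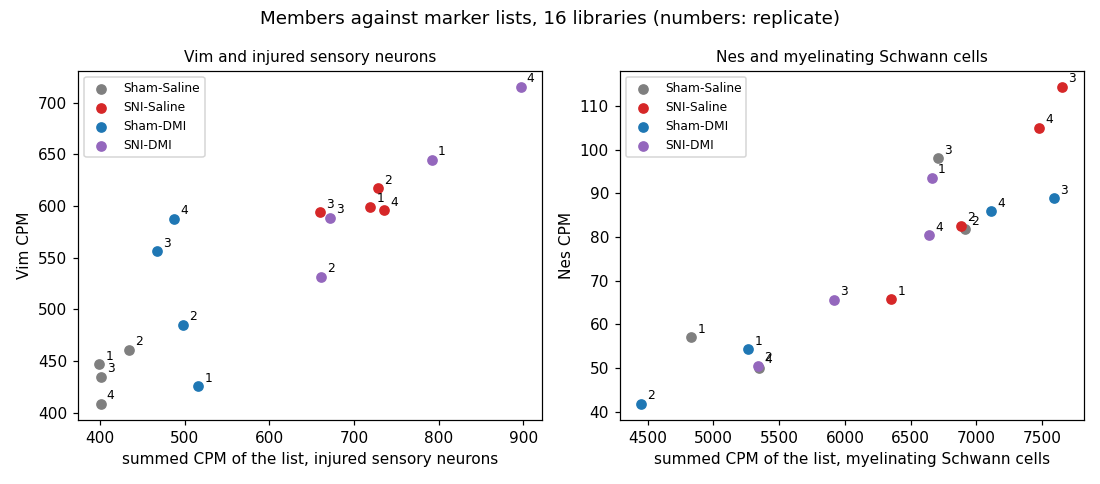
Vim CPM against the summed CPM of 10 injured-neuron genes (left) and Nes CPM against the summed CPM of 11 myelinating Schwann cell genes (right), each point 1 library coloured by group and numbered by replicate. Axes do not start at 0. On the left the SNI libraries lie at 659 CPM or more of the list and at 531 CPM or more of Vim, and on the right libraries with more of the list have more Nes.

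Marker lists were set beside Vim because vimentin is made by many cell types. In SNI-Saline versus Sham-Saline, 9 of 10 injured-neuron genes passed as higher, among them Ecel1 (log2FC 3.16 ± 0.26) and Sprr1a (5.23 ± 0.54), and their sum was 659 to 735 CPM against 399 to 433. The remaining gene, the neuropeptide gene Gal, named after its values were seen, did not pass. Of 6 satellite glia genes 1 passed, Apoe at 0.32 ± 0.08, and the list's sum was 2248 to 2678 CPM against 1974 to 2172. Of 7 macrophage genes 2 passed, Cd68 at 0.77 ± 0.22 and Aif1 at 0.72 ± 0.25, with sums of 63.5 to 108 CPM against 57.0 to 66.5. These counts stand beside the 12.0% of all tested genes that passed in this comparison, with 5.85% passing as higher.

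No gene of the fibroblast (7 genes), endothelial (7), pericyte (6) or myelinating Schwann cell (11) lists passed after injury under saline. The fibroblast sum was 702 to 1040 CPM against 592 to 955. All 11 Schwann cell genes had estimates above 0, with a median log2FC of 0.26, as did 4 of the 7 fibroblast genes. Estimates were below 0 for 6 of the 7 endothelial and 5 of the 6 pericyte genes. Of 6 non-myelinating and repair Schwann cell genes 1 passed, as lower, and 5 had estimates below 0, with a median log2FC of -0.12. Of 5 proliferation genes 1 passed as higher and 4 had estimates above 0, with sums of 11.3 to 15.7 CPM against 7.40 to 12.3. In this comparison 12.0% of all tested genes passed. Over the 16 libraries Vim had an r of 0.89 with the injured-neuron list and 0.71 with the satellite glia list, and with group means removed 0.55 and 0.85. With the myelinating Schwann cell list its r was 0.59 (0.67 with group means removed), with the macrophage list 0.51 (0.41), with the fibroblast list 0.24 (0.46) and with the C-fibre list -0.71 (-0.74). The part of any of these cells in the rise of Vim was not tested, and bulk RNA does not say which cells carried the transcript.

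Nes followed a glial list rather than the groups. Over the 16 libraries its r with the mean log2 CPM of the myelinating Schwann cell genes was 0.93 (0.92 with group means removed). It was also 0.82 with the fibroblast list and -0.79 with the C-fibre neuron list, so libraries with more Nes had more of the fibroblast transcripts and fewer of the small-neuron ones. The Schwann cell list summed to 4832 to 6910 CPM over the Sham-Saline mice and 6352 to 7654 over the SNI-Saline mice. Its sums were 4448 to 7588 for Sham-DMI and 5337 to 6660 for SNI-DMI. In any of the 4 comparisons 0 of its 11 genes passed, where 0.402% to 23.4% of all tested genes did. The part of these cells in the spread of Nes was not tested.

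Large neurons with myelinated fibres are the richest in neurofilaments and small C-fibre neurons in peripherin, so their markers were counted too. In SNI-Saline versus Sham-Saline, 2 of 13 A-fibre genes passed as higher, Ldhb among them, and 2 as lower, with Ntrk2 among them. Of 12 C-fibre genes 4 passed as lower, with Mrgprd, a receptor of non-peptidergic nociceptors, at -0.56 ± 0.11. These counts stand beside the 12.0% of all tested genes that passed there. In Sham-DMI versus Sham-Saline, 2 A-fibre genes passed as higher, Pvalb of proprioceptors at 0.54 ± 0.12 and Ldhb at 0.36 ± 0.06. Another 2 passed as lower, again with Ntrk2 among them, and the median log2FC of the 13 was 0.076. Of the C-fibre genes 1 passed as higher and 1 as lower, where 23.4% of all tested genes passed. When Sham-DMI replicates 2 and 4 were left out, 3 A-fibre genes passed as higher and 2 as lower. Of the C-fibre genes 2 then passed as higher and 0 as lower, with 24.3% of all genes passing. The mean log2 CPM of the A-fibre list had an r with the triplet genes of 0.28 to 0.35 over the 16 libraries. With group means removed it was 0.47 to 0.64. Prph had an r of 0.21 with the C-fibre list and 0.61 with the pan-neuronal list (0.52 and 0.68 with group means removed). These values were below those of the triplet genes among themselves.

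Other genes of the filament system were taken from 3 lists. The first held further intermediate filament genes, of which 11 could be tested and Krt18 could not. After injury under saline 1 of the 11 passed, where 12.0% of all tested genes did. It was Synm (synemin, which joins vimentin and desmin filaments to their surroundings), which fell from 547 ± 28.1 to 495 ± 21.1 CPM (log2FC -0.14 ± 0.051, adjusted p = 0.0965). Gfap, the filament of reactive glia, was scarce, with group means from 2.08 ± 0.65 CPM (Sham-DMI) to 5.08 ± 0.96 CPM (SNI-Saline), and 3.37 ± 1.35 CPM for Sham-Saline and 3.21 ± 0.88 CPM for SNI-DMI. Its log2FC was 0.59 ± 0.26 after injury under saline (adjusted p = 0.178) and 0.62 ± 0.27 under DMI (0.367), and -0.66 ± 0.26 with DMI in injured mice (0.186) and -0.69 ± 0.27 with DMI in sham mice (0.0863), so it passed as lower in the last comparison alone, as the single gene of the 11. In that comparison 23.4% of all tested genes passed. Without Sham-DMI replicates 2 and 4, 3 of the 11 passed as higher and 1 as lower there, with 24.3% of all genes passing. Des, the muscle filament gene, was at 2.32 to 4.08 CPM in the group means and passed nowhere, with a log2FC of 0.45 ± 0.30 after injury under saline (adjusted p = 0.395). The median log2FC of the 11 genes after injury under saline was 0.18, against -0.00060 over all tested genes, with 9 estimates above 0 and 2 below. Several of the 11 were scarce, such as Krt8 at 0.054 CPM and Bfsp2 at 0.82 CPM in Sham-Saline. The 1 gene that passed, the abundant Synm, was lower, so a rise of these genes as a set was not shown.

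**Figure D4:**
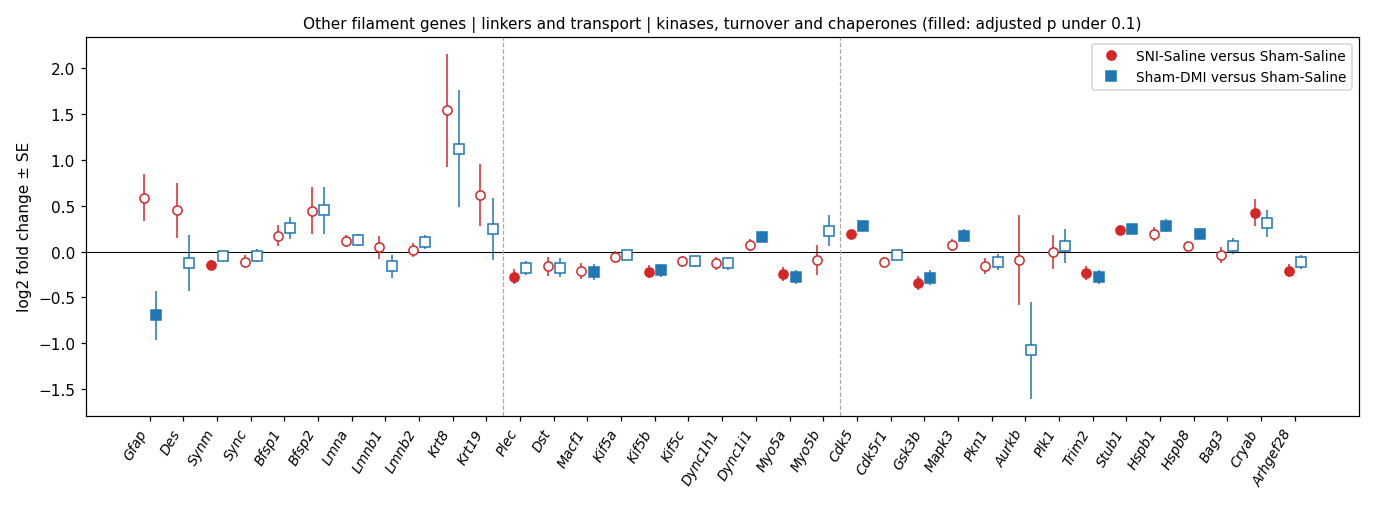
Log2 fold change ± SE of the other filament genes, the linker and transport genes and the kinase, turnover and chaperone genes reported here (separated by dashed lines) after injury under saline (red circles) and with DMI in sham mice (blue squares), from 4 mice per group. Filled symbols mark an adjusted p under 0.1, among them Gsk3b, Myo5a and Trim2 below 0 and Cdk5 and Stub1 above 0 in both comparisons, which share the Sham-Saline mice.

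Some linkers and motors that hold and carry filaments were lower. Of the 11 genes listed 10 were tested, and 3 passed as lower and 0 as higher after injury under saline, where 12.0% of all genes passed: Plec, the plectin cross-linker, at -0.27 ± 0.081 (adjusted p = 0.0558), Kif5b, a kinesin heavy chain of slow axonal transport, at -0.22 ± 0.072 (0.0772), and Myo5a, a myosin that binds neurofilaments, at -0.24 ± 0.075 (0.0637). Plec went from 831 ± 87.7 to 688 ± 53.0 CPM with no overlap. How far the calls of single partner genes, in all 3 lists, depend on the fit was not tested. The share of all genes passing after injury under saline was 4.80% with GC and length trends removed. Over all alternative fits it was 3.15% to 16.7%. With DMI in sham mice 3 passed as lower, Kif5b at -0.20 (0.0590), Myo5a at -0.27 (0.0196) and Macf1, a spectraplakin, at -0.22 (0.0916), and 1 as higher, the dynein intermediate chain gene Dync1i1 at 0.16 (0.0798), where 23.4% of all genes passed. The list's median log2FC was -0.15 in both comparisons, where the median of all genes was -0.00060 and -0.021. With Sham-DMI replicates 2 and 4 left out, the counts with DMI in sham mice were again 3 lower and 1 higher, with 24.3% of all genes passing. None passed in the other 2 comparisons.

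Kinases, turnover factors and chaperones went both ways. After injury under saline 3 of 16 passed as higher and 4 as lower, where 12.0% of all genes passed in either direction. Those higher were Cdk5, which phosphorylates neurofilament tails, at 0.19 ± 0.048 (adjusted p = 0.0322), Stub1, a chaperone-linked ubiquitin ligase, at 0.24 ± 0.057 (0.0268), and the small heat shock gene Cryab at 0.43 ± 0.15 (0.0936). Those lower included the kinase gene Gsk3b at -0.34 ± 0.080 (0.0243), Trim2, a ubiquitin ligase of the light neurofilament, at -0.23 ± 0.075 (0.0749), and Arhgef28, whose product binds Nefl mRNA, at -0.21 ± 0.073 (0.0951). Gsk3b went from 350.2 ± 22.4 CPM in sham mice to 276 ± 13.4 CPM in injured mice, and Cdk5 from 119 ± 7.24 to 136 ± 3.35 CPM, each without overlap.

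With DMI in sham mice 5 of the 16 passed as higher, Cdk5 at 0.28 ± 0.048 (adjusted p = 0.0023), Stub1 at 0.25 (0.0081), Hspb1 at 0.28 (0.0156), Hspb8 at 0.20 (0.0162) and Mapk3 at 0.18 (0.0944), and 3 as lower, among them Trim2 at -0.28 (0.0177) and Gsk3b at -0.28 (0.0218), where 23.4% of all genes passed. With Sham-DMI replicates 2 and 4 left out, 6 of the 16 passed as higher and 2 as lower there, with 24.3% of all genes passing. Hspb1, a small heat shock protein that keeps neurofilaments from aggregating, was the single gene of these lists to pass with DMI in injured mice, from 138 ± 13.9 to 173 ± 13.7 CPM (log2FC 0.33 ± 0.075, adjusted p = 0.0630), with no overlap. Under DMI 0 of the 16 passed with injury. Since the injury and DMI comparisons share the Sham-Saline mice, a direction found in both is not counted as repeated.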

How the data were processed

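The submitters' processing notes name HISAT2, HTSeq, DESeq2 and mm10, and the authors deposited whole-number counts of read pairs per Ensembl gene, not normalized, for 16 poly(A) stranded libraries. Lines of unassigned reads (for ambiguous reads, 3.05% to 3.41% of pairs) were left out. Genes were matched to GENCODE M21. The members and lists were chosen with earlier results of these data known.

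Genes passing edgeR's filterByExpr were TMM-scaled and fitted over all 16 libraries with 1 mean per group (glmQLFit, glmQLFTest). Adjusted p is by Benjamini-Hochberg over all 21371 tested genes, SE is the log2FC over the root of F, and intervals use 12 degrees of freedom. The genes named are the 7 members, the partner genes that passed, Gfap, Des, Trim2, Atf3, up to 3 markers of a list that moved with a member, and the 5 genes most correlated with the mean of the triplet and 3 with each other member. Some genes of the lists are counted but not reported by name or drawn here.

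The fits were made in R 4.3.3 with edgeR 4.0.16 and limma 3.58.1, the alternatives with DESeq2 1.42.0, mgcv 1.9.3 and sva 3.50.0, and the other steps in python 3.11.15. The fit was tested on simulated data. Alternatives were other normalizations, filters, tools and scalings, removal of GC and length trends, a replicate block, and leaving out each library. Leaving out 2 Sham-DMI libraries and 1 further length were added after seeing the data. Replicates differed by more than counting error (chi-square per gene of at least 11.4).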

Additional observations from a re-analysis of the deposited data

Results flagged for a closer look

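Within each group of 4 mice, the highest and lowest CPM of each member were compared with their nearest neighbour, over 28 groups of values. A value stood apart in 2 of them, where the gap relative to the group's whole range was above Dixon's 95% critical value. Chance alone sets apart about 1 in 20 groups, so 2 of 28 is close to what it gives. Nefm in Sham-Saline replicate 4 was 2741 CPM, below the other 3 mice at 2965 to 3007. Nefh in Sham-DMI replicate 3 was 2876 CPM, above the other 3 mice at 2366 to 2417. Sham-DMI replicate 3 was also the library with the fewest counted read pairs (41194238) and the highest of its group for Nefl and Nefm. The cause was not tested.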

How the results depend on the processing

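Over 27 alternative settings, 856 of 917 log2FC values of members kept their direction and their side of the threshold, 25 changed sign, 23 lost the threshold and 13 gained it. Vim passed in SNI-Saline versus Sham-Saline under all of them, with log2FC of 0.43 to 0.49, and was the 1 member that passed there. In SNI-DMI versus SNI-Saline, 1 member (Ina, 0.17, adjusted p = 0.0920) passed with edgeR on the 8 libraries. In Sham-DMI versus Sham-Saline, where 3 passed, 1 passed with edgeR or DESeq2 on the 8 libraries, with 1 surrogate variable, and with pan-neuronal scaling, and 1 to 4 passed when 1 library was left out. The count was 1 without any of these libraries: Sham-DMI replicate 3, replicates 3 and 4 of Sham-Saline, and replicates 3 and 4 of SNI-Saline, each left out alone. In the other comparisons 0 members passed under all of them.

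Reversals concerned small values. In SNI-DMI versus Sham-DMI, Ina and Prph were -0.072 and -0.073 after removal of GC and length trends, and -0.045 and -0.094 without Sham-DMI replicates 2 and 4. In SNI-DMI versus SNI-Saline, Nefl was -0.0011 with upper-quartile normalization and -0.028 with pan-neuronal scaling, and in Sham-DMI versus Sham-Saline Ina was -0.0072 with that scaling. Leaving out 1 library at a time gave ranges across 0 for SNI-DMI versus Sham-DMI (Nefl -0.12 to 0.017, Nefm -0.15 to 0.018, Nefh -0.13 to 0.0036, Ina -0.071 to 0.057, Prph -0.025 to 0.088, Nes -0.067 to 0.27), SNI-DMI versus SNI-Saline (Nefl -0.042 to 0.055, Nefh -0.058 to 0.045, Vim -0.033 to 0.11) and Sham-DMI versus Sham-Saline (Nes -0.23 to 0.12). The causes were not tested.

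Ratios per length depend on the length. The medians over 16 libraries by exon union were 0.920 (Nefm over Nefl), 1.003 (Nefh over Nefl), 0.0284 (Ina over Nefl), 1.41 (Prph over Nefl) and 0.0967 (Nes over Vim). With the longest transcript Nefm over Nefl was 1.45 and Nes over Vim 0.0625. With the RefSeq-matched transcript less shared bases the 5 ratios were 1.07, 0.675, 0.0222, 1.02 and 0.0468.

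Replicate numbers were not treated as pairing the mice. With group means removed, same-numbered libraries of different groups correlated above 0.1 in 5 of 24 pairs (r from -0.081 to 0.18). Differently numbered pairs were not computed, so these values cannot show whether the numbers pair mice. With a replicate block 2 members passed in Sham-DMI versus Sham-Saline, where Vim had a log2FC of 0.22 and an adjusted p of 0.115, and the block changed no other call. The share of all genes that passed moved with the setting, from 3.15% to 16.7% after injury under saline and from 9.69% to 28.5% with DMI in sham mice.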

Other observations

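For each member the genes whose log2 CPM followed it most closely over the 16 libraries were listed as a description. They share libraries, scaling and group differences with the member. The mean of Nefl, Nefm and Nefh was followed by Sord (Pearson's r = 0.90), Ehd3 (0.89), Kcng4 (0.88), Tuba4a (0.86) and Gm13675 (0.85), of which Gm13675 had a mean of 0.205 CPM and is a sparse match. Sord encodes sorbitol dehydrogenase and Kcng4 a modulatory potassium channel subunit, and Tuba4a is an alpha-tubulin gene. With group means removed the r of Sord, Ehd3, Kcng4 and Tuba4a stayed at 0.85 to 0.91.

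Ina was followed by Mapt, the gene of the axonal microtubule protein tau (r = 0.91), Coro2b (0.90) and Rusc1 (0.89). Prph was followed by Tmsb10, a thymosin that binds actin monomers (0.95), Sult4a1 (0.95) and the kinesin light chain gene Klc1 (0.94). The nearest to Vim were Serpine2, which encodes a protease inhibitor made by glia (0.93), Esd (0.92) and Cmtm5 (0.91). Nes was followed by Evc2 (0.95), the collagen gene Col23a1 (0.95) and Limch1 (0.94), whose r with group means removed was 0.95 to 0.97. Within groups, Vim correlated with Ina at -0.60 and with Nes at 0.62.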
